A study of Mus musculus with 39 samples.

Results

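Acod1 and the genes of the glycolytic switch were followed in microglia, the resident macrophages of the brain, sorted from mouse striatum. The set holds 10 genes, found by matching the Ensembl identifiers of the deposited table to GENCODE M21 symbols, out of 55487 identifiers in all. They are Acod1, Hif1a, Slc2a1, Hk1, Hk2, Hk3, Pfkfb3, Pkm, Ldha and Gapdh, and all 10 were among the 13420 genes that passed the filter on low counts. The choice of the genes used no measured value as a rule, but it was made with earlier results of these data known.

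The mice were males of 8 to 10 weeks, injected intraperitoneally with saline or with bacterial lipopolysaccharide (LPS, 4500 endotoxin units per gram) and killed 18 hours later. Live cells were gated as CD11b+, CD45-low and P2RY12+. Titles give a prenatal exposure, MIA for maternal immune activation or CON for its control, followed by PLX or CON. What PLX stands for is not spelled out in the labels. Arms are named here by the pair, so that MIA:PLX had MIA and then PLX. The used libraries number 4 for CON:CON LPS, 4 for CON:CON saline, 6 for MIA:CON LPS, 4 for MIA:CON saline, 6 for CON:PLX LPS, 4 for CON:PLX saline, 6 for MIA:PLX LPS and 3 for MIA:PLX saline, which makes 37. Whether each replicate is its own animal is not stated, and p-values therefore speak only to the scatter among these libraries, part of which can be technical. The titles of 2 further libraries, CON:CON LPS replicate 3 and MIA:PLX saline replicate 1, mark them for exclusion and they are left out.

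Macrophages exposed to LPS are known to shift glucose use towards glycolysis and lactate. Glucose enters through transporters such as Slc2a1, is trapped by hexokinases, is committed to glycolysis at a step that Pfkfb3 accelerates, and ends as pyruvate (Pkm) and lactate (Ldha). The transcription factor Hif1a drives many of these genes, and Acod1 diverts cis-aconitate from the tricarboxylic acid cycle to itaconate, which blocks succinate dehydrogenase and dampens inflammation.

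The sequence to which HIF-1 binds has the core ACGTG, and the sequences shown here are the stretches before the starts of 4 members that hold it, from RefSeq promoters on GRCm38.p6. The Acod1 stretch is the 30 bases before its RefSeq start, and these bases lie within exon sequence of Acod1 in GENCODE M21. The Hif1a, Pfkfb3 and Ldha stretches begin 250 bases before the start and lie outside GENCODE M21 exons. Each is written 5′ to 3′ on the gene's strand, and capitals mark ACGTG on either strand, with the overlapping palindrome CACGTG where it occurs.
Acod1, chr14:103046982-103047011, plus strand: tgtataaaggcaCACGTccactaaaggccc
Hif1a, chr12:73907617-73907866, plus strand: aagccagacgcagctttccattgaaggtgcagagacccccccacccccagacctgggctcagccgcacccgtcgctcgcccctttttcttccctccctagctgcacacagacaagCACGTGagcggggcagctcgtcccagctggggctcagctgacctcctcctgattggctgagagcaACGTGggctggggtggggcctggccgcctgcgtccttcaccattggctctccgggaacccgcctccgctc
Pfkfb3, the second of its RefSeq starts, chr2:11502102-11502340, minus strand: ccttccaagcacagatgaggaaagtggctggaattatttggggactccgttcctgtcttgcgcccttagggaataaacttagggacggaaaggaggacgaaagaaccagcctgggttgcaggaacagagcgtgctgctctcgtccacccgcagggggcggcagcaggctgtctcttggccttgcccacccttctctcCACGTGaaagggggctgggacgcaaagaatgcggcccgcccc
Ldha, the first of its RefSeq starts, chr7:46845554-46845803, plus strand: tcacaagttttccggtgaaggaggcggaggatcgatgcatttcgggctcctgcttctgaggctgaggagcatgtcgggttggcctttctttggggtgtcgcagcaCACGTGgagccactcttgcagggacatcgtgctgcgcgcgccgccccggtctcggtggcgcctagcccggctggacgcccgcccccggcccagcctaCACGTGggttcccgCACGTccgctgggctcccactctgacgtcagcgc

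Of the 14 RefSeq starts of the members, 9 had ACGTG on either strand within the 250 bases before them, and 8 of the 10 members had it before at least 1 start. Among 32536 promoters the same search found it in 16.7%. The palindrome CACGTG, which holds ACGTG on both strands, stood before 3 of the 14 starts (Hif1a, Pfkfb3 and Ldha) and in 6.04% of all promoters. The C/EBP motif TTGCNNAA, also searched on both strands, was found before 1 start, of Pkm, against 9.57% of all promoters. An NF-kB consensus was found before 0 of the 14 starts and in 3.92% of promoters. Hk1 and Gapdh had no ACGTG in these windows. The matches are letters in a window and say nothing of binding in these cells.

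The 37 libraries held 1510006 to 5746240 estimated counts (median 3095170), and levels are given in CPM, each library's estimated counts being divided by its TMM-scaled total. The 8 microglial markers summed to 5906 to 14206 CPM after LPS and to 15114 to 18570.1 CPM after saline, and P2ry12, on which the cells were gated, was lower after LPS in the 4 arms. Replicate 1 of CON:CON LPS, of CON:PLX LPS and of MIA:CON LPS stood above the other 19 LPS libraries in Acod1. Their deviations from the group means had Pearson correlations across genes of 0.803 (CON:PLX with CON:CON) and 0.818 (MIA:CON with CON:CON). Replicate 2 of the same groups had 0.78 and 0.629. The group means include replicate 1, so its departure also shifts the deviations of the other replicates. Whether the likeness is particular to replicate 1 can therefore not be told from these values. MIA:CON LPS replicate 6 differed from the excluded MIA:PLX saline replicate 1 by little more than counting noise, with a chi-square per degree of freedom of 1.53 over 11605 genes, the lowest of 741 pairs of libraries. The next library nearest to that replicate 6 was a saline one, MIA:CON saline replicate 2, at 8.94. Whether that replicate 6 and the excluded library were mixed or exchanged was not tested, and it bears on every MIA:CON LPS value. Some results are also given without these replicate 1 libraries. LPS against saline in MIA:CON is given without replicate 6 for Acod1, Slc2a1, Hk3 and Hif1a. The values of the other results that use replicate 6 are given with it only.

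**Figure D1:**
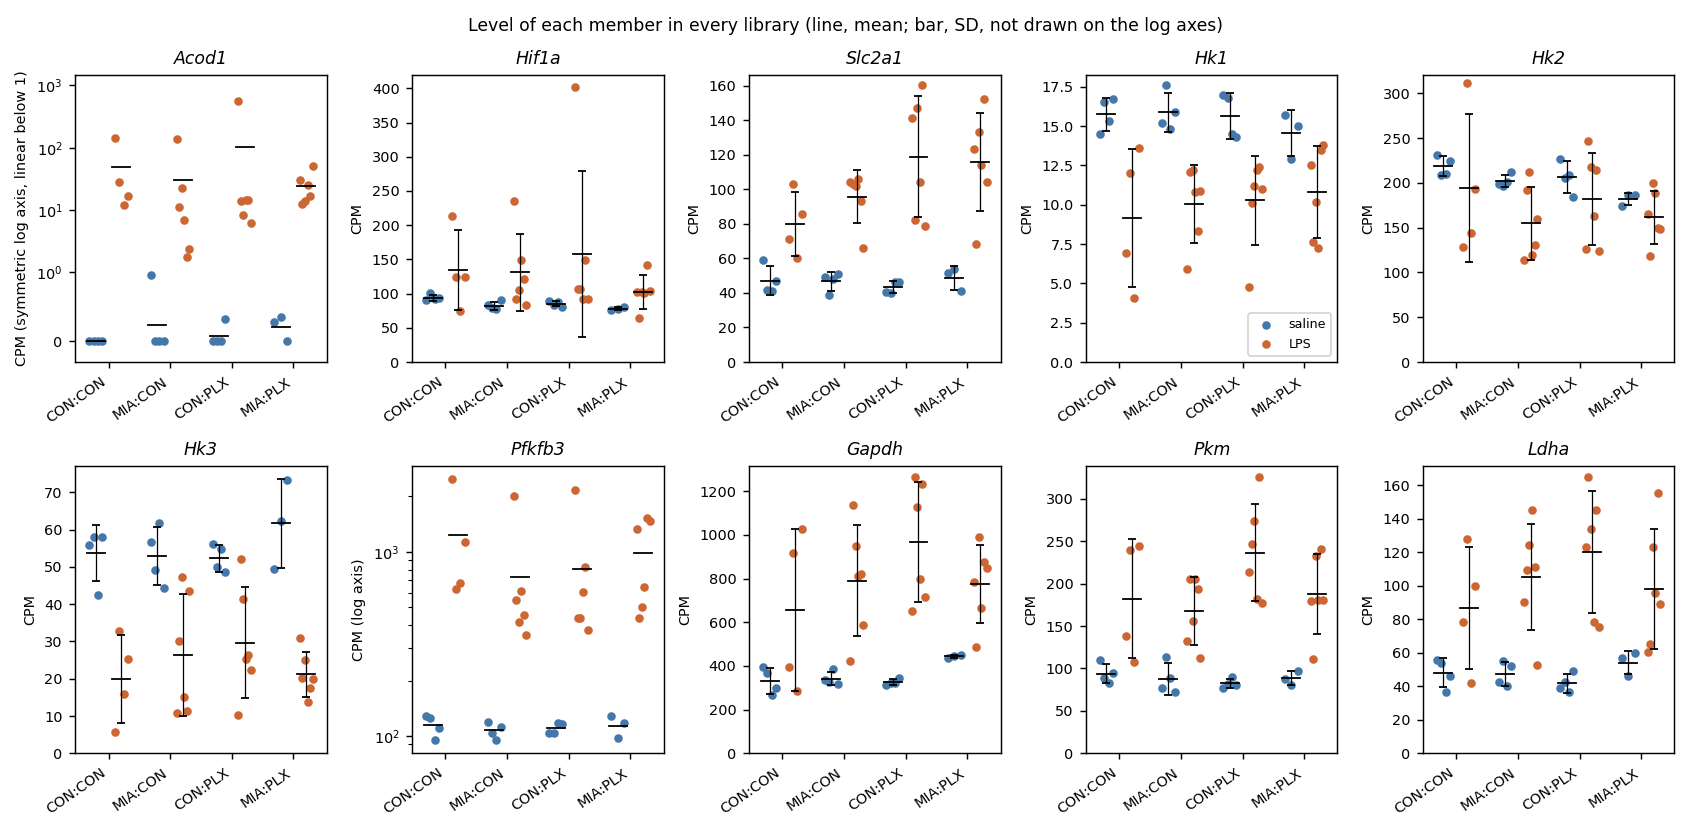
Level of each of the 10 members in every library, in CPM, by arm, with saline in blue and LPS in orange. Points are libraries, horizontal lines are means and bars are SD (not drawn for Acod1 and Pfkfb3, whose vertical axes are logarithmic, for Acod1 linear below 1). Acod1, Slc2a1 and Pfkfb3 show no overlap between LPS and saline libraries in any of the 4 arms. The share of all genes without overlap is not given here.

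LPS against saline within each arm asks how the innate stimulus changes these genes. In CON:CON 8 of the 10 members changed, where 23.6% of all genes tested did by the same rule (edgeR quasi-likelihood test, Benjamini-Hochberg adjusted p under 0.05). Of them 6 rose, against 13.7% of all genes, namely Acod1, Pfkfb3, Slc2a1, Pkm, Gapdh and Ldha, and 2 fell, against 9.84%, namely Hk3 and Hk1. In MIA:CON the same 6 rose (14.5% of all genes) and Hk3 fell (10.9%), so that 7 changed (25.4%). Without LPS replicate 6 there the same 7 passed, with Hk3 at a log2 fold change of -1.19 (adjusted p 0.0175). Hif1a did not pass (0.77, 0.0703). In CON:PLX 7 rose (17.5% of all genes), the same 6 and Hif1a, and 0 fell (14%), against 31.5% of all genes in either direction. In MIA:PLX 5 rose (11.8% of all genes), Pfkfb3, Slc2a1, Pkm, Gapdh and Ldha, and Hk3 fell (10.4%), so that 6 changed against 22.3%. The median log2 fold change of the members was 0.809, 0.983, 1.489 and 0.828 in CON:CON, MIA:CON, CON:PLX and MIA:PLX, beside 0.058, 0.033, 0.025 and 0.037 over all genes tested. These are bulk libraries, in which fewer cells of a type and less RNA per cell cannot be told apart. Where the levels of 2 groups are said below not to overlap, the share of all genes that separate so is not given.

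Acod1 (ENSMUSG00000022126.6, chr14:103046977-103056573, plus strand on GRCm38), which makes itaconate, was near absent without LPS. Of the 15 saline libraries 11 held no Acod1 count, and the highest stood at 0.963 CPM. In CON:CON the LPS libraries stood at 142, 27.9, 12 and 16.5 CPM and the saline libraries all at 0. A count of 0 over that saline group allows up to 0.206 CPM (3 counts), so Acod1 was at least 239.6-fold higher. Every LPS library was above every saline library.

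In MIA:CON Acod1 ran from 1.75 to 136 CPM after LPS (median 8.95), and after saline it stood at 0.963, 0, 0 and 0. The count ratio was 70.4 (95% interval 27.3 to 259.8, counting error only). In the CON:PLX arm it ran from 6.18 to 555 CPM after LPS (median 14.3) with 1 saline count, in the library at 0.324 CPM, and the ratio was 2269.8 (407 to 89681). In MIA:PLX it ran from 12.5 to 49.9 CPM after LPS (median 20.7) against 0.28, 0.357 and 0 after saline, a ratio of 107 (29.3 to 883). MIA:PLX is the arm in which no LPS library stood far above the rest.

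By edgeR's quasi-likelihood test the adjusted p of the Acod1 rise was 0.00553 in CON:CON, 0.0211 in MIA:CON and 0.000959 in CON:PLX. In MIA:PLX it was 0.0505, so the separated groups there did not pass the threshold. That rise was called with only the groups compared (adjusted p 1.93e-05), with the marked libraries put back (0.0314) and with the replicate block (0.00272). It was not called with RLE scaling, without the low-count filter or with mitochondrial genes left out. The call in MIA:CON was lost without LPS replicate 1 (adjusted p 0.0958), saline replicate 1 (0.05), saline replicate 3 (0.0574) or saline replicate 4 (0.0576), and the adjusted p in MIA:PLX was 0.0492 without LPS replicate 2. By limma voom the adjusted p was 0.0668, 0.244, 0.0673 and 0.212 in CON:CON, MIA:CON, CON:PLX and MIA:PLX, so Acod1 passed in no arm. DESeq2 gave Acod1 no adjusted p in any LPS comparison, with log2 fold changes of 9.86, 6.8, 10.41 and 6.84 in the same order.

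Replicate 1 held 70.8% of the Acod1 counts of CON:CON LPS, 64.8% of those of MIA:CON LPS and 93.0% of those of CON:PLX LPS. Without it Acod1 was still at least 93.0-fold higher in CON:CON, and the count ratio was 27.7 (10.6 to 103) in MIA:CON and 205 (36.5 to 8152) in CON:PLX. With all 3 such libraries left out of 1 fit, the adjusted p was 1.49e-06, 0.000187 and 2.73e-06 in CON:CON, MIA:CON and CON:PLX. The size of the rise was thus smaller without these libraries, while Acod1 stayed called in the 3 arms. The libraries were picked for their high Acod1, so leaving them out also narrows its spread. The lower p-values therefore add no support. Without MIA:CON LPS replicate 6 the adjusted p in MIA:CON was 0.013.

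Monocytes and neutrophils also make Acod1, and the sums of their markers were higher after LPS, though the ranges overlapped. The 7 monocyte markers (Ccr2, Plac8, Ly6c2, Chil3, Fn1, S100a4 and S100a6) summed to 11.8 to 635 CPM after LPS and to 2.63 to 17.7 CPM after saline. The 9 neutrophil markers summed to 3.12 to 144 CPM after LPS and to 0 to 103 CPM after saline. In the 3 libraries with the highest Acod1 the monocyte sum was 18.7, 43.4 and 11.8 CPM (CON:CON, CON:PLX and MIA:CON), the lowest LPS value of each of those groups, and the neutrophil sum was 5.36, 33.4 and 11.8 CPM. Of the 9 neutrophil markers 6, 2 and 5 were at 0 in those 3 libraries, in the same order, and the others were detected. The markers did not all move one way: of 5 tested monocyte markers 4, 4, 3 and 4 rose in CON:CON, MIA:CON, CON:PLX and MIA:PLX, while Ccr2 fell in CON:PLX and MIA:PLX. Of 6 tested neutrophil markers 3, 5, 1 and 2 rose and 0 fell. The part of these cells in the Acod1 levels was not tested in any LPS library, those 3 included.

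Hif1a (ENSMUSG00000021109.13), the oxygen-regulated subunit of HIF-1, is known to be controlled mainly through the stability of its protein, and its transcript was already present in every saline library. It stood at 90, 100.5, 91.9 and 93.9 CPM in CON:CON saline and at 214, 125, 74.0 and 124 CPM in CON:CON LPS. The ranges overlapped, and the log2 fold change was 0.51 ± 0.343 (SE, adjusted p 0.294). In CON:PLX it stood at 88.5, 83.5, 88.0 and 80.5 CPM after saline and ran from 92.4 to 402 CPM after LPS (median 107), with no overlap.

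In CON:PLX Hif1a rose by 0.90 ± 0.320 on the log2 scale (adjusted p 0.03). That call was lost without LPS replicate 1, the library at 402 CPM (0.36, adjusted p 0.269), without any 1 of the 4 saline libraries, and without the 3 high-Acod1 libraries together (0.36 ± 0.178, adjusted p 0.119). The log2 fold change was 0.67 ± 0.320 in MIA:CON (adjusted p 0.124) and 0.39 ± 0.351 in MIA:PLX (0.468). After LPS the 3 high-Acod1 libraries also had the highest Hif1a, at 214, 402 and 236 CPM against 64.2 to 149 CPM in the other 19.

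Slc2a1 (ENSMUSG00000028645.11), the glucose transporter GLUT1, rose in all 4 arms without overlap. In CON:CON it stood at 58.9, 41.8, 40.9 and 46.7 CPM after saline and at 71.0, 103, 60.4 and 85.9 CPM after LPS, a rise of 0.76 ± 0.218 on the log2 scale (adjusted p 0.00924). In MIA:CON it stood at 49.1, 38.6, 47.8 and 51.0 CPM after saline and ran from 65.9 to 106 CPM after LPS (median 102), a rise of 1.03 ± 0.205 (0.000383). Replicate 6 was the lowest LPS library there, and without it the rise was 1.12 ± 0.205 (8.45e-05).

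In CON:PLX Slc2a1 stood at 40.5, 40.2, 46.5 and 46.1 CPM after saline and ran from 79.0 to 160.3 CPM after LPS (median 122), a rise of 1.46 ± 0.207 (adjusted p 1.52e-06). In MIA:PLX it stood at 51.8, 53.6 and 40.9 CPM after saline and ran from 68.4 to 152 CPM after LPS (median 119), a rise of 1.25 ± 0.230 (0.000125). Unlike Acod1 and Hif1a, Slc2a1 was not highest in the 3 high-Acod1 libraries, which ranked 19, 4 and 11 of 22. Endothelial cells of the blood-brain barrier express Slc2a1 strongly, and 8 endothelial and mural markers summed to 22.6 to 49.3 CPM after saline and to 7.75 to 33.4 CPM after LPS. The part of these cells in the Slc2a1 levels was not tested. The CON:CON call was lost with the excluded libraries put back (0.62, adjusted p 0.0553).

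**Figure D2:**
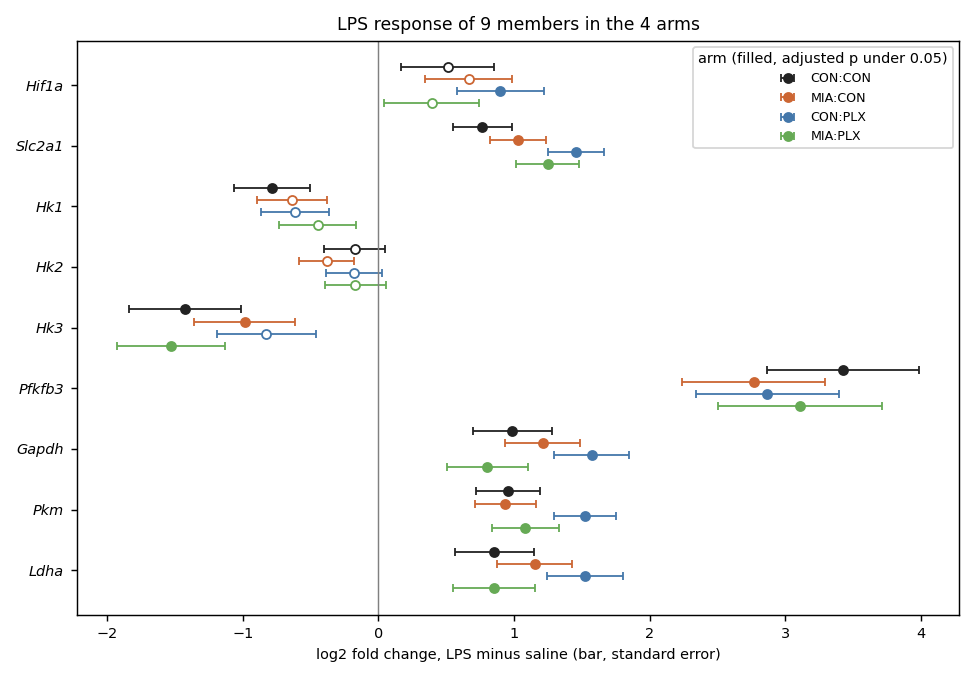
Log2 fold change of 9 members after LPS relative to saline, by arm, with standard errors from the edgeR fit and filled points for an adjusted p under 0.05. Pfkfb3 lies furthest to the right, at 2.77 to 3.42, and Hk3 furthest to the left, at -1.53 to -0.83. Acod1 is not drawn, since saline levels at or near 0 leave its fitted fold change without a firm size.

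The hexokinases, which phosphorylate glucose, did not follow the transporter. Hk2, the inducible isozyme, did not pass the test in any arm, with log2 fold changes of -0.18 (CON:CON, 95% interval -0.63 to 0.28), -0.38 (MIA:CON, -0.8 to 0.03), -0.18 (CON:PLX, -0.6 to 0.23) and -0.17 (MIA:PLX, -0.63 to 0.28). It ran from 174 to 231 CPM over the saline libraries and from 114 to 311 CPM over the LPS libraries, so that the spread was wider after LPS.

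Hk3, an isozyme of myeloid cells, was lower after LPS. In CON:CON it stood at 55.9, 58.0, 42.5 and 58.1 CPM after saline and at 5.62, 32.8, 15.9 and 25.4 CPM after LPS, and it fell by 1.43 ± 0.416 on the log2 scale (adjusted p 0.0112). In MIA:PLX it stood at 49.3, 62.2 and 73.4 CPM after saline and ran from 13.8 to 31.0 CPM after LPS (median 20.1), and it fell by 1.53 ± 0.400 (0.00515). The groups did not overlap in these 2 arms.

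In MIA:CON Hk3 stood at 56.6, 49.1, 61.7 and 44.3 CPM after saline and ran from 10.7 to 47.3 CPM after LPS (median 22.6), and it fell by 0.99 ± 0.370 (adjusted p 0.0472). In CON:PLX it stood at 56.1, 49.9, 54.7 and 48.7 CPM after saline and ran from 10.2 to 52.2 CPM after LPS (median 25.9), a log2 fold change of -0.83 ± 0.364 that missed the threshold (0.0814). The MIA:CON call was lost on leaving out any of 8 of the 10 libraries, the exceptions being LPS replicates 3 and 6. The CON:CON call was lost without LPS replicate 1 (-1.12, adjusted p 0.0505), the library with the lowest Hk3, but passed without the 3 high-Acod1 libraries together (-1.12 ± 0.336, adjusted p 0.0151). Those 3 also had the lowest Hk3 after LPS, so leaving them out narrows its spread. Without CON:PLX LPS replicate 2, the highest there, Hk3 passed in CON:PLX too (-1.07, 0.0239), as it did there by limma voom (-1.03, 0.0185). Monocytes and neutrophils also express Hk3, and the part of their marker sums, given with Acod1, in the Hk3 levels was not tested.

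Hk1, the housekeeping isozyme, ran from 12.9 to 17.6 CPM over the saline libraries and from 4.09 to 13.8 CPM over the LPS libraries. It fell by 0.78 ± 0.280 on the log2 scale in CON:CON (adjusted p 0.0384), and that call was lost on leaving out any of 6 of the 8 libraries, and in 1 fit without the 3 high-Acod1 libraries (-0.67 ± 0.260, 0.0605). It stood at -0.64 ± 0.257 in MIA:CON (0.0633), -0.62 ± 0.249 in CON:PLX (0.0554, and -0.46 with 0.113 without the 3 high-Acod1 libraries) and -0.45 ± 0.282 in MIA:PLX (0.274). With the replicate number as a block it passed in MIA:CON (-0.76, 0.025) and CON:PLX (-0.75, 0.0194), as it did by DESeq2 (0.0419 and 0.0237), and in CON:PLX also by limma voom (0.0162), with RLE scaling (0.0418) and without LPS replicate 4 (0.0478) or 5 (0.0461). Neurons express Hk1 strongly, and the 8 neuronal markers summed to 17.8 to 46.2 CPM after saline and to 4.09 to 66.4 CPM after LPS, and the part of neurons in the Hk1 levels was not tested.

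Per kilobase of exon, Hk2 made up most of the hexokinase transcript in every group. Its share of the summed per-kilobase levels was 69.2% ± 2.57 (SD, n = 4) in CON:CON saline and 84.0% ± 4.52 (n = 4) in CON:CON LPS. In MIA:CON it was 67.7% ± 3.18 (n = 4) and 77.2% ± 6.91 (n = 6), in CON:PLX 68.2% ± 0.707 (n = 4) and 77.5% ± 5.14 (n = 6), and in MIA:PLX 62.5% ± 3.37 (n = 3) and 79.2% ± 4.76 (n = 6). The Hk3 share in the same order of arms went from 27.3%, 28.6%, 28.1% and 34.0% after saline to 13.1%, 19.3%, 19.4% and 17% after LPS. The Hk1 share was 2.82% to 3.78% in all 8 groups. The summed level was 53.1, 50.1, 50.6 and 49.0 CPM per kilobase after saline and 38.9, 34.3, 39.7 and 34.1 after LPS.

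**Figure D3:**
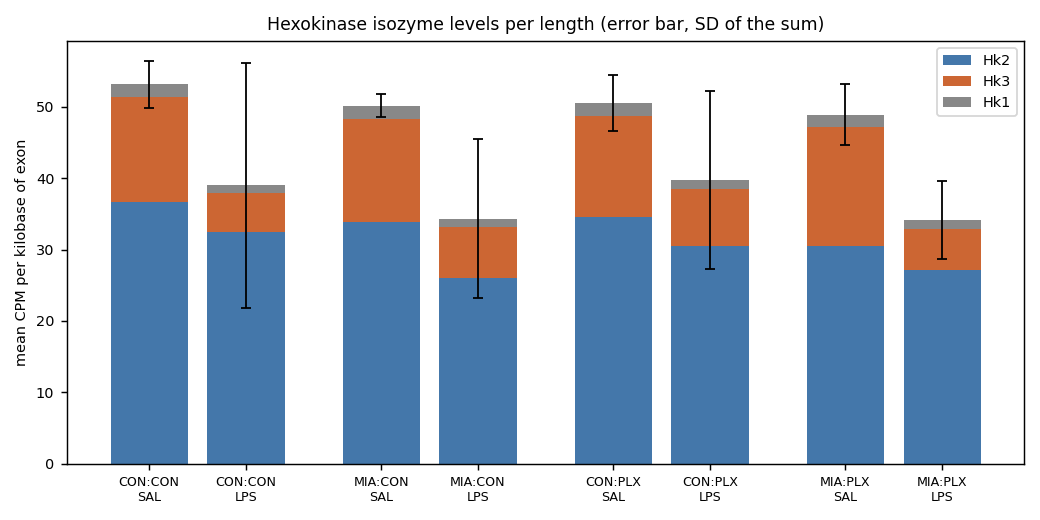
Mean level of Hk2, Hk3 and Hk1 in CPM per kilobase of exon, stacked, in each of the 8 groups, with the SD of the sum over libraries as the error bar. The bars are lower after LPS in each arm, at 34.1 to 39.7 against 49.0 to 53.1, and the Hk3 segment goes from 14.2 to 16.7 after saline to 5.41 to 8.05 after LPS.

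Pfkfb3 (ENSMUSG00000026773.19) makes fructose 2,6-bisphosphate, the strongest known activator of phosphofructokinase, and was the member other than Acod1 with the largest rise in each arm. In CON:CON it stood at 128, 125, 95.3 and 111 CPM after saline and at 2490, 627, 675 and 1125 CPM after LPS. In MIA:CON it stood at 119.6, 104, 94.9 and 112 CPM after saline and ran from 353 to 2021 CPM after LPS (median 502). The lowest LPS library of each of these arms was above the highest saline library.

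In CON:PLX Pfkfb3 stood at 104, 104, 118 and 116 CPM after saline and ran from 377 to 2157 CPM after LPS (median 520.2). In MIA:PLX it stood at 128, 97.2 and 117 CPM after saline and ran from 436 to 1518 CPM after LPS (median 987). The rise was 3.42 ± 0.563 on the log2 scale in CON:CON (10.7-fold, adjusted p 4.05e-05), 2.77 ± 0.526 in MIA:CON (6.80-fold, 0.000285), 2.87 ± 0.528 in CON:PLX (7.30-fold, 8.89e-05) and 3.11 ± 0.606 in MIA:PLX (8.62-fold, 0.000298). Without the 3 high-Acod1 libraries, which also had the 3 highest Pfkfb3 levels, it was 7.06-fold, 4.42-fold and 4.85-fold higher in CON:CON, MIA:CON and CON:PLX, and the calls were kept. Leaving them out also narrows the spread of Pfkfb3, so the kept calls add no support.

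Gapdh, Pkm and Ldha, the lower glycolytic enzymes, rose in all 4 arms, each by less than Pfkfb3. Gapdh, often used as a reference gene, ran from 265 to 452 CPM after saline and from 287 to 1266 CPM after LPS. It rose by 0.99 ± 0.290 on the log2 scale in CON:CON (adjusted p 0.0116), 1.21 ± 0.273 in MIA:CON (0.0014), 1.57 ± 0.277 in CON:PLX (3.95e-05) and 0.80 ± 0.298 in MIA:PLX (0.0489). The ranges overlapped in CON:CON alone. The call in MIA:PLX was lost on leaving out any of 7 of the 9 libraries, and that in CON:CON without LPS replicate 2 (0.77, adjusted p 0.0559) or 5 (0.68, 0.0902).

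Pkm, pyruvate kinase, ran from 72.3 to 114 CPM after saline and from 108 to 326 CPM after LPS. It rose by 0.95 ± 0.238 in CON:CON (adjusted p 0.00315), 0.94 ± 0.223 in MIA:CON (0.00218), 1.52 ± 0.226 in CON:PLX (3.3e-06) and 1.08 ± 0.248 in MIA:PLX (0.00145). The groups overlapped in CON:CON and MIA:CON. No single library, left out, ended a Pkm call. Isoforms of Pkm, of which PKM2 is the one tied to activated macrophages, are not separated in gene-level counts.

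Ldha, which turns pyruvate into lactate, ran from 36.6 to 59.7 CPM after saline and from 41.7 to 165 CPM after LPS. It rose by 0.85 ± 0.293 in CON:CON (adjusted p 0.0308), 1.15 ± 0.277 in MIA:CON (0.00236), 1.52 ± 0.278 in CON:PLX (6.51e-05) and 0.85 ± 0.303 in MIA:PLX (0.0383). The groups overlapped in CON:CON and MIA:CON. The CON:CON call was lost without LPS replicate 2 (0.60, adjusted p 0.154), LPS replicate 5 (0.78, 0.0737), saline replicate 3 (0.74, 0.0989) or saline replicate 4 (0.83, 0.0681), and the MIA:PLX call was lost without LPS replicate 3 or 5 or any 1 of the 3 saline libraries.

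Reads of these enzymes can be split between genes. The library kit keeps no strand, and Gapdh overlaps Iffo1, which held 10.1% as many counts as Gapdh and had log2 fold changes of -0.90, -0.82, -1.21 and -0.63 in CON:CON, MIA:CON, CON:PLX and MIA:PLX, a fall in the first 3 arms and not past the threshold in MIA:PLX (adjusted p 0.0566 by edgeR). Gapdh also has 180 genes in GENCODE M21 with at least 90% identity over 200 or more bases, with 17331 counts in all, most of them in Peli2, against its own 75196. Pkm overlaps the same-strand gene Gm49759, which held 24.9% as many counts and had log2 fold changes of 0.75, 0.32, 1.09 and 0.97. Ldha has 13 similar genes with 2.72% as many counts as Ldha, and Acod1 has none.

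Across the pathway, the genes around the members were taken as lists, with counts by the same rule and the same shares of all genes as above. Of 24 tested glycolytic enzymes, sugar and lactate transporters outside the members, 7 rose and 3 fell in CON:CON and 8 rose and 2 fell in MIA:CON. With PLX, 9 rose and 4 fell in the CON arm and 5 rose and 4 fell in the MIA arm. The median log2 fold change of the list was 0.12, 0.338, 0.552 and 0.069. Slc2a6, a lysosomal sugar transporter, rose by 4.92 ± 0.644, 4.48 ± 0.618, 5.0 ± 0.583 and 4.87 ± 0.662 (adjusted p 8.51e-07, 2.27e-06, 4.85e-08 and 1.51e-06 by edgeR). Slc2a3, the glucose transporter GLUT3, rose by 2.55, 2.56, 2.21 and 3.27, and Gpi1, the isomerase after hexokinase, by 1.17, 0.89, 1.37 and 1.14. Pfkl, the phosphofructokinase of liver type, stood at -0.03, 0.06, 0.11 and -0.35 and passed in no arm. Slc2a5, a fructose transporter known from resting microglia, and Slc16a7, a monocarboxylate transporter, fell in all 4.

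Of 15 tested HIF-1 regulators and targets, 1 rose and 3 fell in CON:CON and 3 rose and 2 fell in MIA:CON. With PLX, 3 rose and 4 fell in the CON arm and 2 rose and 2 fell in the MIA arm. The list had median log2 fold changes of -0.224, 0.018, -0.032 and -0.192. Pdk1, a classic HIF-1 target that inhibits pyruvate dehydrogenase, fell in all 4 arms, with log2 fold changes of -1.56 ± 0.341, -1.34 ± 0.303, -1.55 ± 0.300 and -1.5 ± 0.326. Ddit4, which restrains mTOR, rose in CON:CON, CON:PLX and MIA:PLX (2.18, 1.73 and 2.23). Bnip3, a mitophagy receptor, passed in no arm (0.09, 0.02, 0.09 and -0.35).

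Downstream of pyruvate, 6 of 23 tested genes of the tricarboxylic acid cycle and itaconate handling rose in CON:CON and 1 fell. In MIA:CON 6 rose and 1 fell, and with PLX 8 rose and 1 fell in the CON arm and 2 rose and 1 fell in the MIA arm. The gene that fell was Idh2, the mitochondrial NADP-dependent isocitrate dehydrogenase, each time. Of all genes 13.7%, 14.5%, 17.5% and 11.8% rose in CON:CON, MIA:CON, CON:PLX and MIA:PLX, so 2 of 23 in MIA:PLX does not exceed that share. The median log2 fold change of the list was 0.393, 0.384, 0.435 and 0.258. Idh3a, a subunit of the NAD-dependent enzyme, rose by 1.24, 1.48, 1.23 and 0.80. Of 11 tested genes of pyruvate dehydrogenase and its regulation 2, 2, 3 and 2 rose in CON:CON, MIA:CON, CON:PLX and MIA:PLX and 0 fell. For so few genes these counts are near the shares of all genes. That list leaves out the kinase Pdk1, which stands in the HIF-1 list and fell in all 4 arms. Of 8 pentose phosphate genes 3, 3, 5 and 2 rose and 0 fell, with Pgd, which makes NADPH, at 1.20, 0.89, 1.36 and 1.02. Of 21 oxidative phosphorylation subunits 5, 11, 17 and 8 rose and 0 fell. Atp5b, the catalytic subunit of ATP synthase, rose by 1.07, 1.02, 1.11 and 0.81.

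Of 10 tested genes in a list linked to itaconate, NRF2 and ATF3, 6, 3, 6 and 5 rose and 0 fell. Keap1 and Nfkbiz were among those that rose in CON:CON and CON:PLX. The list does not set the direction in which itaconate would move a gene, and an action of itaconate was not tested. Txnrd1, thioredoxin reductase, rose by 1.94, 1.25, 1.67 and 2.12, and Hmox1, haem oxygenase, by 1.38, 1.67, 1.48 and 1.23. Atf3 itself passed in no arm, at 1.01, 0.63, 0.53 and 0.44. Of 7 tested inflammatory metabolic enzymes 6 rose in each arm, among them Cybb, the catalytic subunit of the phagocyte NADPH oxidase, by 4.88, 4.28, 3.92 and 3.21. Gch1, which starts tetrahydrobiopterin synthesis, rose by 2.4, 1.73, 2.30 and 2.93. Asl, argininosuccinate lyase, passed in no arm, at 0.37, 0.14, 0.34 and 0.14.

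**Figure D4:**
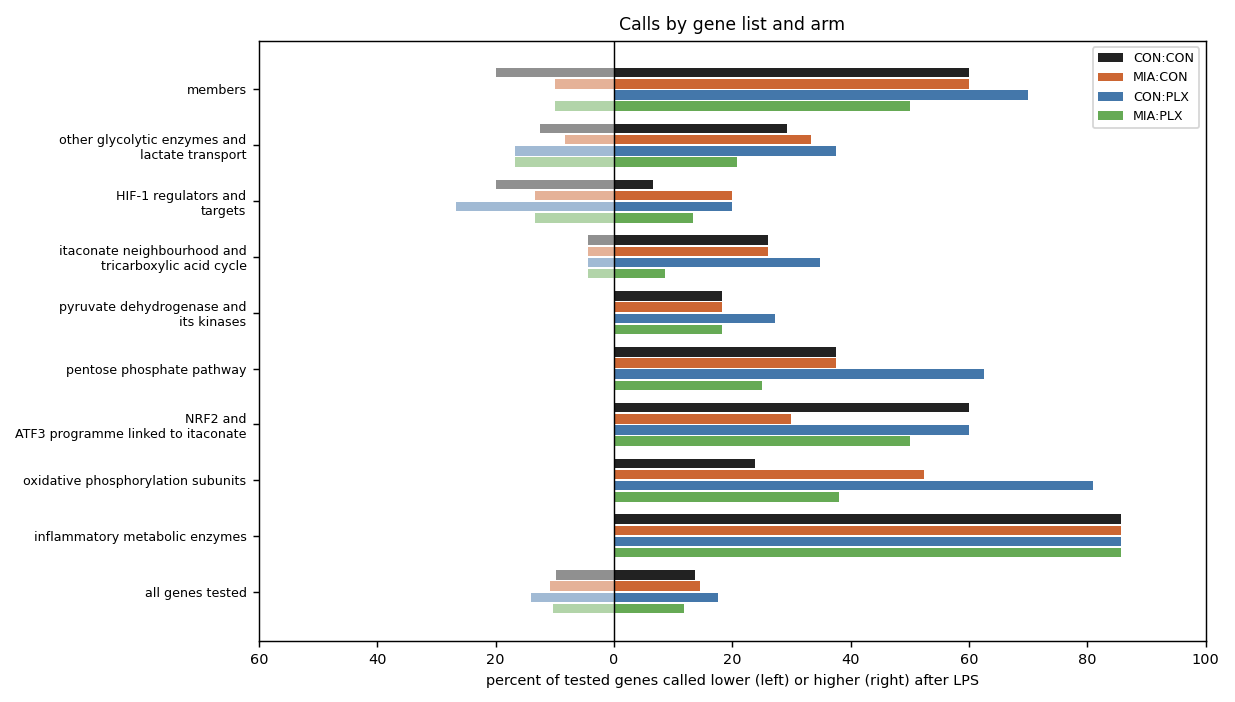
Percent of the tested genes of each list called higher (right, full colour) or lower (left, paler) after LPS, in each of the 4 arms, with all 13420 genes tested in the lowest rows. Among the lists other than the members, inflammatory metabolic enzymes stand at 6 of 7 genes higher in each arm, and the glycolytic and HIF-1 lists have calls on both sides.

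Prenatal MIA was then set against CON, and PLX against its absence, within each injection. In these 8 comparisons 0 of the 10 members were called by edgeR, and 0 by DESeq2 (which gave no adjusted p for Acod1) or limma voom. At an unadjusted p under 0.05 edgeR had 2 members in MIA against CON at LPS with PLX, beside 1193 of the 13420 genes tested. It had 2 in PLX against none in CON at LPS, beside 944 of all genes. In the other 6 it had 0, beside 125 to 1252 of all genes. At an adjusted p under 0.05 the share of all genes was 0.0149% for MIA against CON at LPS with PLX. It was 0.00745% for PLX against none in CON at LPS and 0% in the other 6.

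The 2 in MIA against CON at LPS with PLX were Hif1a (-0.63 ± 0.281, adjusted p 0.513) and Acod1 (-2.10 ± 1.01, adjusted p 0.557), and without CON:PLX LPS replicate 1, which held the highest level of each, Hif1a stood at -0.10 (adjusted p 0.913) and Acod1 at 1.05 (0.702). The 2 in PLX against none in CON at LPS were Slc2a1 (0.57 ± 0.199, adjusted p 0.629) and Gapdh (0.56 ± 0.266, 0.69). Away from Acod1, no member differed by more than 0.75 on the log2 scale in any of the 8 comparisons. For Pfkfb3 in MIA against CON at LPS without PLX, the one at 0.75, the difference was -0.75 with a 95% interval of -1.68 to 0.19, which does not exclude a level more than 2-fold lower. At saline without PLX the interval for MIA against CON was -0.46 to 0.43 for Slc2a1, -0.54 to 0.63 for Gapdh and -0.62 to 0.57 for Ldha. At saline with PLX, Gapdh stood at 438, 444 and 452 CPM in MIA and at 311, 324, 320.3 and 346 CPM in CON, without overlap, and the log2 fold change was 0.45 ± 0.309 (adjusted p 1). A fit of those 2 groups alone called it (0.46, adjusted p 0.000481), with 136 of all genes.

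Whether the LPS response itself differed with MIA was tested as an interaction. With or without PLX, 0 members passed by edgeR, DESeq2 or limma voom, and 0% of all genes were called. At an unadjusted p under 0.05 edgeR had 0 members, beside 415 of all genes without PLX and 393 with PLX. The largest interaction other than for Acod1 was Gapdh with PLX, at -0.77 ± 0.388 (95% interval -1.56 to 0.02, adjusted p 1), and without PLX Gapdh stood at 0.22 ± 0.390 (-0.57 to 1.01). The fitted interaction of Acod1 had an interval of -16.56 to 9.65 with PLX, since its saline counts are at or near 0. That Acod1 passed the threshold for LPS in CON:PLX and not in MIA:PLX is therefore not a tested difference between those arms.

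**Figure D5:**
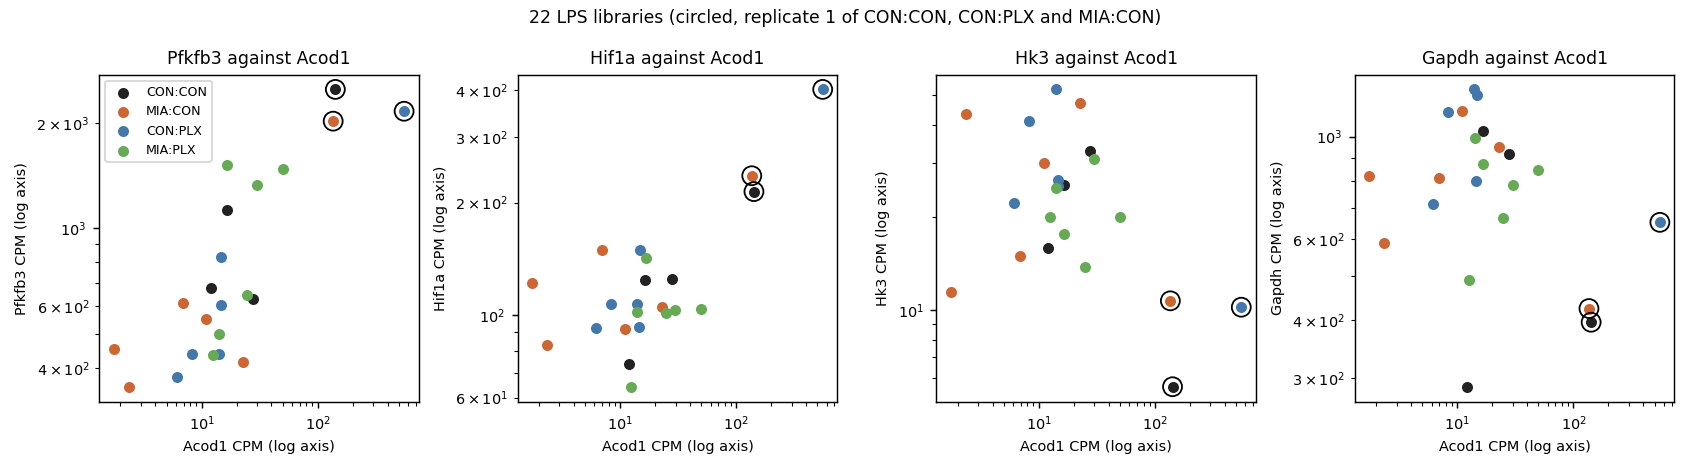
Level of Pfkfb3, Hif1a, Hk3 and Gapdh against Acod1 in the 22 LPS libraries, in CPM on log axes, coloured by arm, with replicate 1 of CON:CON, CON:PLX and MIA:CON circled. The circled libraries are the 3 highest for Acod1, Pfkfb3 and Hif1a and the 3 lowest for Hk3.

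Over the 22 LPS libraries each member was set against Acod1. Log2 CPM of Acod1 had a Pearson correlation of 0.81 with Pfkfb3 (Spearman 0.77) and 0.73 with Hif1a (Spearman 0.50). Without the 3 high-Acod1 libraries the correlation was 0.615 for Pfkfb3 and 0.08 for Hif1a, so that the relation with Hif1a rests on those libraries. The other members stood between -0.47 (Hk3) and 0.24 (Slc2a1), with Gapdh at -0.28, Ldha at 0.08 and Pkm at -0.03. The libraries share arms and differ in depth, and these values are a description.

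The 6 named genes most like Acod1 over those 22 libraries, by the same correlation, were Lacc1 (0.93), Spata13 (0.89), Ggta1 (0.87), N4bp1 (0.87), Sod2 (0.86) and Birc3 (0.86). Lacc1 is a metabolic enzyme of inflammatory macrophages, Sod2 the mitochondrial superoxide dismutase and Birc3 an inhibitor of cell death in the NF-kB pathway. Without the 3 high-Acod1 libraries they stood at 0.76, 0.66, 0.55, 0.67, 0.54 and 0.76. The likeness is among LPS libraries and not in the response to LPS. By edgeR, LPS against saline passed for Sod2 and Birc3 in every arm. It passed for Lacc1 and N4bp1 in CON:CON and CON:PLX only, and for Spata13 and Ggta1 in no arm. Sod2 had a wide spread after LPS, with a highest value of 792 CPM in CON:CON, 1242 CPM in CON:PLX and 786 CPM in MIA:CON, against medians of 214, 160.5 and 145 CPM.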

How the data were processed

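The authors deposited 1 table of estimated counts (expected counts per gene). The submitters' processing notes name STAR, RSEM and DESeq2, with no version. Which build and annotation they used is not given in the sources used here. Of its nonzero values 14.7% are not whole, so counts were rounded before fitting. GENCODE M21 matched 55141 of 55487 identifiers, 54349 of them with the same version, and identifiers without a symbol held 0.0132% of the counts.

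Genes were kept by filterByExpr (minimum count 10, minimum total 15) in edgeR 4.0.16 (R 4.3.3). One quasi-likelihood model with a mean per group, TMM scaling and robust dispersion was fitted to 37 libraries (common dispersion 0.0972), and p-values, two-sided, had a Benjamini-Hochberg adjustment over 13420 genes per contrast. The standard error (SE) is the log2 fold change over the root of F, and 95% intervals of log2 fold changes use the t distribution at the degrees of freedom of the quasi-likelihood test. CPM use TMM-scaled totals, and log2 CPM for correlations a prior count of 2. Depth limits Acod1 most, since a count of 0 allows up to 3 counts. The script was tested on simulated data.

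The genes, lists and alternatives were chosen with earlier results of these data known. Named list genes are up to 3 with the smallest p and the one with the largest p in the CON:CON LPS contrast. Those like Acod1 are the 6 with the highest Pearson correlation, and genes named beyond these were chosen after their values were seen. Marker lists covered neutrophils, monocytes, border macrophages, endothelial and mural cells, erythroid cells, neurons, astrocytes, oligodendrocytes, microglia and dissociation stress. Alternatives were RLE scaling, no low-count filter, DESeq2 1.42.0, limma 3.58.1 voom, marked libraries put back, a replicate block, mitochondrial genes left out, only the groups compared, each library left out, and, chosen after seeing the data, the 3 high-Acod1 libraries left out.

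Replicate numbers do not pair LPS with saline (correlation of deviations -0.19 to 0.153). In PLX against none in CON at LPS all 4 same-numbered pairs deviated together (0.223 to 0.803), by the data and not by the labels, and the block changed no call of a member there. Deviations are from group means, so replicate 1 can shift the other pairs too.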

Additional observations from a re-analysis of the deposited data

Results flagged for a closer look

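Single libraries stood far from the rest of their group, by Dixon's test at 95%, in 11 of 69 groups of values checked. The nominal rate of about 1 in 20 is for independent groups. These groups share libraries, so the number cannot be compared with that rate. Acod1 was highest in replicate 1 of CON:CON LPS (142 CPM, the others 12 to 27.9), of CON:PLX LPS (555, the others 6.18 to 14.7) and of MIA:CON LPS (136, the others 1.75 to 22.8). In CON:PLX LPS the same replicate 1 was highest for Hif1a (402 CPM, the others 92.4 to 149) and Pfkfb3 (2157, the others 377 to 826) and lowest for Hk1 (4.74, the others 10.1 to 12.4). In MIA:CON LPS replicate 1 was highest for Pfkfb3 (2021, the others 353 to 611).

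Slc2a1 was lowest in MIA:CON LPS replicate 6 (65.9 CPM, the others 93.0 to 106), the library close to an excluded one. Hk3 was lowest in CON:CON saline replicate 3 (42.5 CPM, the others 55.9 to 58.1). Acod1 in saline stood at 0.324 CPM in CON:PLX replicate 4 and at 0.963 CPM in MIA:CON replicate 1, with 0 in the other libraries of each group. Where all the others are at 0, any count is flagged.

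The excluded MIA:PLX saline replicate 1, labelled saline, held Slc2a1 at 69.7 CPM, Pfkfb3 at 312 CPM and Gapdh at 587 CPM, above the highest used saline library for each (58.9, 128 and 452 CPM). MIA:CON LPS replicate 6 had 65.9, 353 and 588 CPM of these genes. The other excluded library, CON:CON LPS replicate 3, labelled LPS, held Acod1 at 0, Pfkfb3 at 89.5 CPM and Slc2a1 at 34.1 CPM. CPM of the excluded libraries are on totals without TMM scaling. Both enter only the fits with the marked libraries put back and the comparison of library pairs.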

How the results depend on the processing

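In the 4 LPS comparisons the number of members called in CON:CON, 8, was 5 with the marked libraries put back and 5 with only the groups compared, and leaving out 1 library gave 6 to 7 there, 5 to 7 in MIA:CON, 6 to 8 in CON:PLX and 4 to 7 in MIA:PLX. In MIA against CON at saline with PLX, 0 became 1 (Gapdh) with only the groups compared. Leaving out 1 library gave 0 in the other 10 comparisons. No called value changed sign in the alternatives run, and 198 of 5896 alternative values, called in neither fit, did. With the replicate block, 8, 8, 8 and 7 members were called in the LPS comparisons, adding Hk1 in MIA:CON and CON:PLX and Acod1 in MIA:PLX (adjusted p 0.00272), and it changed no other call. Over 48 same-numbered pairs the correlation of deviations ran from -0.259 to 0.818, and the own number was best in 17. Gapdh in MIA:PLX was lost with RLE scaling, no low-count filter, limma voom, the marked libraries put back or mitochondrial genes left out (adjusted p 0.0534 to 0.131). Hif1a in CON:PLX, Hk3 in MIA:CON, Hk1 in CON:CON and Ldha in MIA:PLX were lost without that filter (0.0741, 0.129, 0.118 and 0.0742). By limma voom the calls of Acod1 in CON:CON, MIA:CON and CON:PLX, Ldha in CON:CON (0.068) and MIA:PLX (0.0729) and Hif1a in CON:PLX (0.0761) were lost and Hk1 (0.0162) and Hk3 (0.0185) in CON:PLX gained, DESeq2 gained Hk1 in MIA:CON (0.0419) and CON:PLX (0.0237), RLE scaling gained Hk1 in CON:PLX (0.0418), and Acod1 in MIA:PLX was gained with only the groups compared (1.93e-05) or the marked libraries put back (0.0314). With only the groups compared, the calls lost were those of Hk1, Ldha and Gapdh in CON:CON (0.0736 to 0.126), Hk3 in MIA:CON (0.0687) and Hif1a in CON:PLX (0.113). With the marked libraries put back, Slc2a1, Hk3 and Ldha in CON:CON (0.0553 to 0.0886) and Hk3 in MIA:CON (0.0591) were lost. DESeq2 gave no adjusted p for Acod1 in any comparison, so it neither kept nor lost the Acod1 calls. The causes of these changes were not tested. Among all genes, LPS in MIA:CON had 3403 calls and 2228 with only the groups compared, where MIA against CON at saline with PLX had 136 in place of 0. DESeq2 gave 7 for MIA against CON at LPS without PLX (0 by edgeR), 14 with PLX (2) and 25 for PLX against none in MIA at LPS (0). In the remaining comparisons of MIA, PLX or the interaction, under the alternatives run, the count was 0 to 16. A depth of 1510006 to 5746240 counts leaves Acod1 in saline libraries at 0 to 4 counts a group.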
